A study of Sus scrofa with 12 samples.

Results

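The genes described here mark the endothelium, the cell layer that lines blood and lymphatic vessels, and were read in jejunal mucosa of pigs. The list held 32 genes, chosen by name as known vessel genes. Of these, 30 had a probe set under their symbol, out of 13687 genes with a symbol on the array. The transcription factors SOX17 and SOX18 were not found under any symbol and were not analysed here. All 30 had a mean signal above the filter on dim probe sets, as did 12600 of the 13687 genes. A gene with several probe sets was read from the one with the highest mean over the 12 arrays.

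The samples were 12 pigs aged 140 days, 6 labelled as high and 6 as low in feed efficiency. Either group had 3 males and 3 females. The labels name no drug, allele or transgene, and nothing used here gives the breed, the diet or how efficiency was scored. Each pig gave 1 single-colour Affymetrix array, and values are log2 signals, so a difference of 1 is a doubling. Pigs are called high 1 to high 6 and low 1 to low 6, numbers that are names only; 1 to 3 were males and 4 to 6 were females in both groups.

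Blood capillaries run beneath the gut epithelium and carry absorbed sugars and amino acids to the liver. A blind-ended lymphatic vessel in the core of each villus, the lacteal, takes up absorbed fat. Both vessel types share adhesion proteins such as VE-cadherin, while the homeobox factor PROX1 and the VEGF-C receptor FLT4 mark lymphatic endothelium in most adult tissues. VEGF, angiopoietin and Notch ligands act on endothelial receptors to start, steady and pattern new vessels.

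The genes were sorted by textbook knowledge into 4 lymphatic genes (LYVE1, PROX1, FLT4 and MMRN1), 9 genes mainly of blood vessels (VWF, FLT1, PLVAP, EMCN, ROBO4, CD34, DLL4, NOTCH4 and APLNR) and 17 that both vessel types share. Which cells of the whole mucosa gave each signal was not tested. Array medians lay between 4.02 and 4.16. The 12 negative control probe sets had means of at most 1.90, but the 69 background probe sets ranged from 1.21 to 7.70 on average. A level alone therefore does not show that a vessel gene was above background. Levels of different genes were set against each other only in the log ratios below, which were compared between groups.

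No endothelial gene differed between feed efficiency groups at an adjusted p under 0.05 in limma, which fitted feed efficiency and sex over all 35791 probe sets that passed the filter. The background was also 0% of those probe sets, and the smallest adjusted p among the 30 genes was 0.6. At an unadjusted p under 0.05, PODXL and ESAM had the higher mean in high-efficiency pigs, which is 2 of 30 genes, against 3.81% of all probe sets. None of the 30 had the lower mean at that p, against 3.98% of all probe sets. The mean was higher in the high group for 18 genes, 60%, and lower for 12, beside 48.4% of all probe sets with the higher mean. The median difference was 0.06, beside -0.01 over all probe sets. For 22 of the 30 genes the 2 group means lay within 0.2 log2 units of each other. In whole mucosa, fewer endothelial cells and less RNA per cell cannot be told apart.

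**Figure D1:**
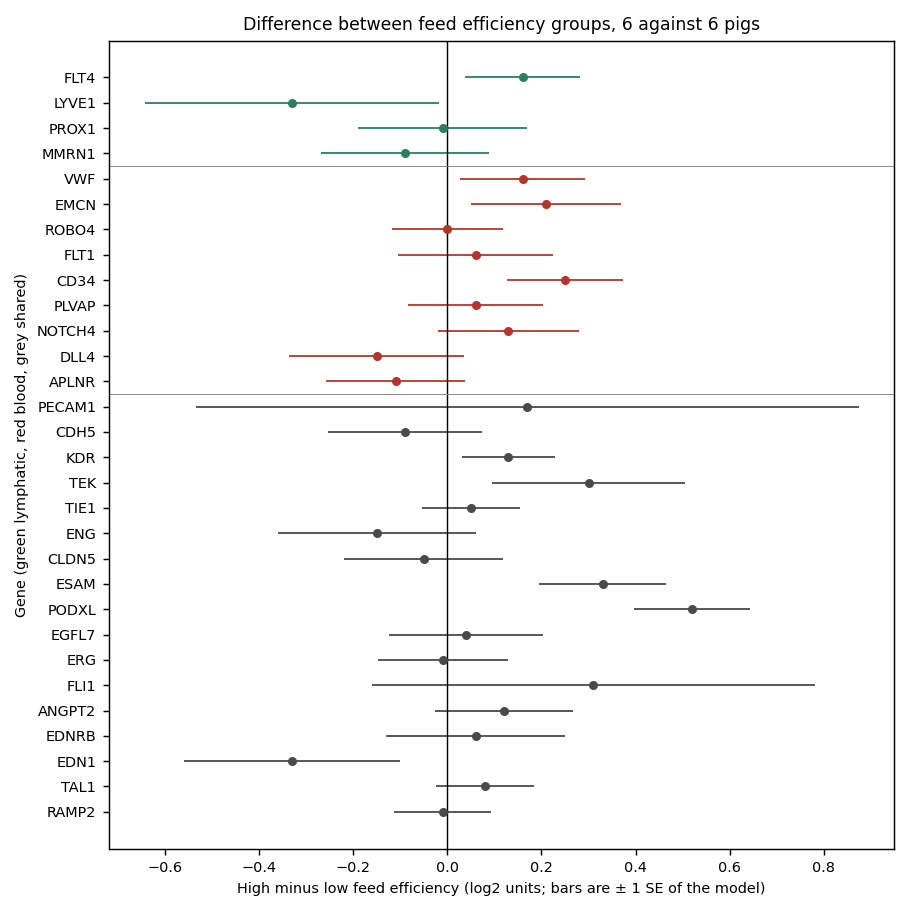
High minus low feed efficiency in log2 units for each of the 30 vessel genes, with points for the limma estimate and bars for ± 1 SE; green is lymphatic, red is blood and grey is shared. PODXL at 0.52 lies farthest to the right, and PECAM1 has the widest bar, with an SE of 0.704.

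PODXL encodes podocalyxin, a sialomucin of the CD34 family on the luminal face of vessels. Its signal ran from 6.07 to 6.45 with a median of 6.43 in high-efficiency pigs, and from 5.60 to 6.12 with a median of 5.84 in low-efficiency pigs. The groups overlapped through single pigs: high 6 lay below low 4, and the other 5 high pigs lay above every low pig. The means were 6.34 ± 0.161 and 5.82 ± 0.195 (SD, n = 6 each), a difference of 0.52 (SE 0.124, 1.43-fold; limma unadjusted p = 0.00124, adjusted p = 0.6). Leaving out any 1 pig left the difference between 0.47 and 0.59 and the unadjusted p at most 0.00391. Another PODXL probe set, with a mean of 4.02, ranged from 1.67 to 7.04 over the pigs and gave a difference of 2.11 (SE 0.774; limma unadjusted p = 0.0181, adjusted p = 0.624). Its values had an r of 0.49 with those of the first. A further PODXL probe set, with a mean of 4.59, differed by 0.12 (SE 0.164).

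ESAM is an adhesion molecule of endothelial tight junctions. It ran from 4.97 to 5.71 with a median of 5.53 in high-efficiency pigs, and from 5.02 to 5.22 with a median of 5.13 in low-efficiency pigs. Pig high 4 had the lowest value of all 12, and the other 5 high pigs lay above every low pig. The difference was 0.33 (SE 0.135, 1.25-fold; limma unadjusted p = 0.0318, adjusted p = 0.63). That p was not under 0.05 without high 1, high 2, high 5, high 6, low 1, low 2 or low 6, where it ran from 0.051 to 0.0738, nor when each array was centred on the median. The count of genes at an unadjusted p under 0.05 was then 1, except without low 6, and it was 4 without high 4 or with array spread as a covariate.

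VE-cadherin, encoded by CDH5, holds endothelial adherens junctions together. It ran from 5.96 to 6.61 with a median of 6.40 in high-efficiency pigs and from 6.16 to 6.89 with a median of 6.27 in low-efficiency pigs. The highest CDH5 values were those of the females low 5 and low 6, and no high pig lay above the whole low group. The difference of -0.09 (SE 0.164) turned to 0.01 without high 4, to 0.01 with the mean of all CDH5 probe sets and to 0.04 with array spread as a covariate. Its 3 probe sets, at means of 6.38, 6.36 and 6.30, differed by -0.09, 0.16 and -0.05.

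PECAM1, the junctional molecule also called CD31, varied more than any other vessel gene here. Its probe set ran from 2.50 to 7.14 with a median of 6.38 in high-efficiency pigs and from 4.33 to 6.75 with a median of 5.50 in low-efficiency pigs. The lowest and the highest value were both from high-efficiency males, high 2 and high 1. The difference was 0.17 (SE 0.704), and leaving out 1 pig at a time moved it between -0.18 without high 1 and 0.86 without high 2. The array holds a second probe set under the older symbol CD31, which ran only from 5.79 to 6.88 over the 12 pigs and differed by -0.02 (SE 0.191). This comparison was added after the data were seen. The r between the PECAM1 and CD31 probe sets was 0.10, so the wide spread of the first was not shared by the second.

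CD34, a sialomucin of capillaries, ran from 5.66 to 6.04 in high-efficiency and from 5.28 to 5.91 in low-efficiency pigs, and differed by 0.25 (SE 0.124; limma unadjusted p = 0.0634, adjusted p = 0.655). All 6 high pigs lay above the low group's median of 5.64, and 3 lay above every low pig. EMCN, a sialomucin of capillaries and veins, differed by 0.21 (SE 0.159). PLVAP, which forms the diaphragms of fenestrated capillaries such as those of the villus, had means of 8.33 ± 0.234 and 8.27 ± 0.216. ENG, a co-receptor for TGF-beta and BMP ligands, differed by -0.15 (SE 0.21), and the tight junction protein CLDN5 by -0.05 (SE 0.169). Of the 10 surface and junction genes, LYVE1 included, 6 had the higher mean in the high group.

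**Figure D2:**
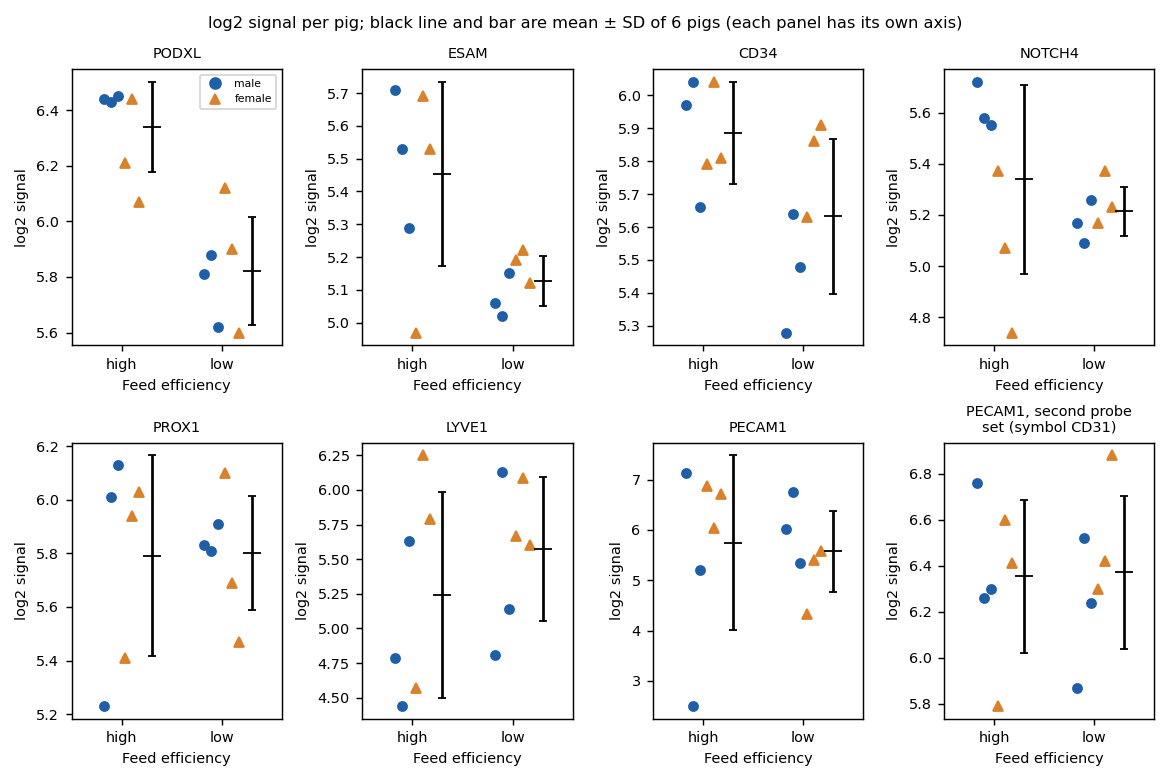
Log2 signal of each pig by feed efficiency group for 7 vessel genes and for the second PECAM1 probe set, with blue circles for males, orange triangles for females and black bars for mean ± SD of 6 pigs; each panel has its own axis. In the PODXL panel 5 high pigs lie above every low pig, and in the PECAM1 panel the high group spans 2.50 to 7.14.

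The VEGF receptors had slightly higher means in high-efficiency pigs, by 0.06 to 0.16, and none passed. KDR, the main signalling receptor for VEGF-A, ran from 6.19 to 6.53 with a median of 6.45 in high-efficiency pigs and from 6.11 to 6.43 with a median of 6.35 in low-efficiency pigs. It was the steadiest of the 3 receptors, and 3 high pigs lay above every low pig. The difference was 0.13 (SE 0.0995; limma adjusted p = 0.764). FLT1, a receptor that binds VEGF-A tightly and signals weakly, differed by 0.06 (SE 0.164). In the angiopoietin pathway the receptor TEK differed by 0.30 (SE 0.204), its partner TIE1 by 0.05 (SE 0.104) and the ligand ANGPT2 by 0.12 (SE 0.147). The Notch pair, receptor NOTCH4 and ligand DLL4 of arterial and sprouting endothelium, differed by 0.13 (SE 0.149) and -0.15 (SE 0.186).

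Among secreted proteins, the clotting factor carrier VWF ran from 5.97 to 6.70 with a median of 6.15 in high-efficiency pigs and from 5.84 to 6.21 with a median of 6.11 in low-efficiency pigs. Pig high 2 stood above all others, and the other 5 high pigs lay within or close to the low group's range. The VWF difference was 0.16 (SE 0.132; limma adjusted p = 0.78), and it was 0.06 without high 2. The vasoconstrictor peptide EDN1 had the lower mean in the high group, 4.36 ± 0.34 against 4.69 ± 0.474, a difference of -0.33 (SE 0.23). Only 1 high pig lay above the low median of EDN1. EGFL7, a secreted protein of vessel walls, differed by 0.04 (SE 0.163).

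The ETS factors ERG and FLI1 and the blood and vessel factor TAL1 differed by -0.01 (SE 0.138), 0.31 (SE 0.471) and 0.08 (SE 0.104). FLI1 ranged from 2.43 to 5.67 over the pigs, a spread of 3.24 that only PECAM1, with 4.64, exceeded among the 30 genes. The other genes spanned 0.41, for RAMP2, to 1.82, for LYVE1. The receptors EDNRB, for endothelins, APLNR, for apelin, and ROBO4, a guidance receptor, differed by 0.06, -0.11 and -0.00. RAMP2, which turns a receptor partner into one for adrenomedullin, differed by -0.01. EDNRB is also made by enteric neurons and glia.

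The lymphatic genes showed no shared shift with feed efficiency. LYVE1, a hyaluronan receptor of lymphatic capillaries and of some macrophages, ran from 4.44 to 6.25 with a median of 5.21 in high-efficiency pigs and from 4.81 to 6.13 with a median of 5.64 in low-efficiency pigs. In this probe set high 2 and high 4 were the lowest and high 5 the highest of all 12, so the high group enclosed the low group. The difference was -0.33 (SE 0.313; limma adjusted p = 0.811). Without 1 pig it ran from -0.49, without high 5, to -0.12, without high 4, and it was 0.22 with array spread as a covariate. Another LYVE1 probe set, with a mean of 4.03, had an r of only 0.09 with the one used. It ran from 3.72 to 4.46, with high 5 near the bottom at 3.76, and differed by -0.13 (SE 0.133).

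PROX1 ran from 5.23 to 6.13 with a median of 5.98 in high-efficiency pigs and from 5.47 to 6.10 with a median of 5.82 in low-efficiency pigs. High 1 and high 4 were the lowest of all pigs, and the other 4 high pigs lay above the low median. The PROX1 difference was -0.01 (SE 0.179; limma adjusted p = 0.994) and moved to 0.12 without high 1.

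FLT4, the receptor for VEGF-C, ran from 2.82 to 3.37 with a median of 3.11 in high-efficiency pigs and from 2.76 to 3.23 with a median of 2.97 in low-efficiency pigs. Both groups contained low and high values, and the FLT4 difference was 0.16 (SE 0.122; limma adjusted p = 0.75). This probe set was not far above the filter value of 2.29.

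MMRN1, an adhesive protein of platelets and lymphatic endothelium, ran from 3.67 to 4.93 with a median of 4.42 in high-efficiency pigs and from 4.20 to 4.74 with a median of 4.36 in low-efficiency pigs. High 1 was the lowest and high 5 the highest of all pigs. The MMRN1 difference was -0.09 (SE 0.178; limma adjusted p = 0.922), and it was 0.03 without high 1.

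By vessel type, 1 of 4 lymphatic genes and 6 of 9 blood vessel genes had the higher mean in the high group, with median differences of -0.05 and 0.06. The 17 shared genes split 11 to 6, with a median of 0.06. None of the 30 genes separated the 6 high from the 6 low pigs without overlap, and 0.282% of all probe sets did so. Lymphatic genes were also set against CDH5 and KDR, which both vessel types share, within each pig as log ratios. The high group's mean minus the low group's was 0.08 for PROX1 minus CDH5 (exact permutation p = 0.851), -0.24 for LYVE1 minus CDH5 (exact permutation p = 0.517) and 0.04 for FLT4 minus KDR (exact permutation p = 0.818). These 2-sided tests used every relabelling of the 12 pigs, could reach a p of 0.00216, and each had an adjusted p of 0.851 over the 3 ratios. The sign of PROX1 minus CDH5 turned without high 3, low 5 or low 6, and that of FLT4 minus KDR without high 4 or low 3. LYVE1 minus CDH5 ran from -0.44 without high 5 to -0.05 without high 2.

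**Figure D3:**
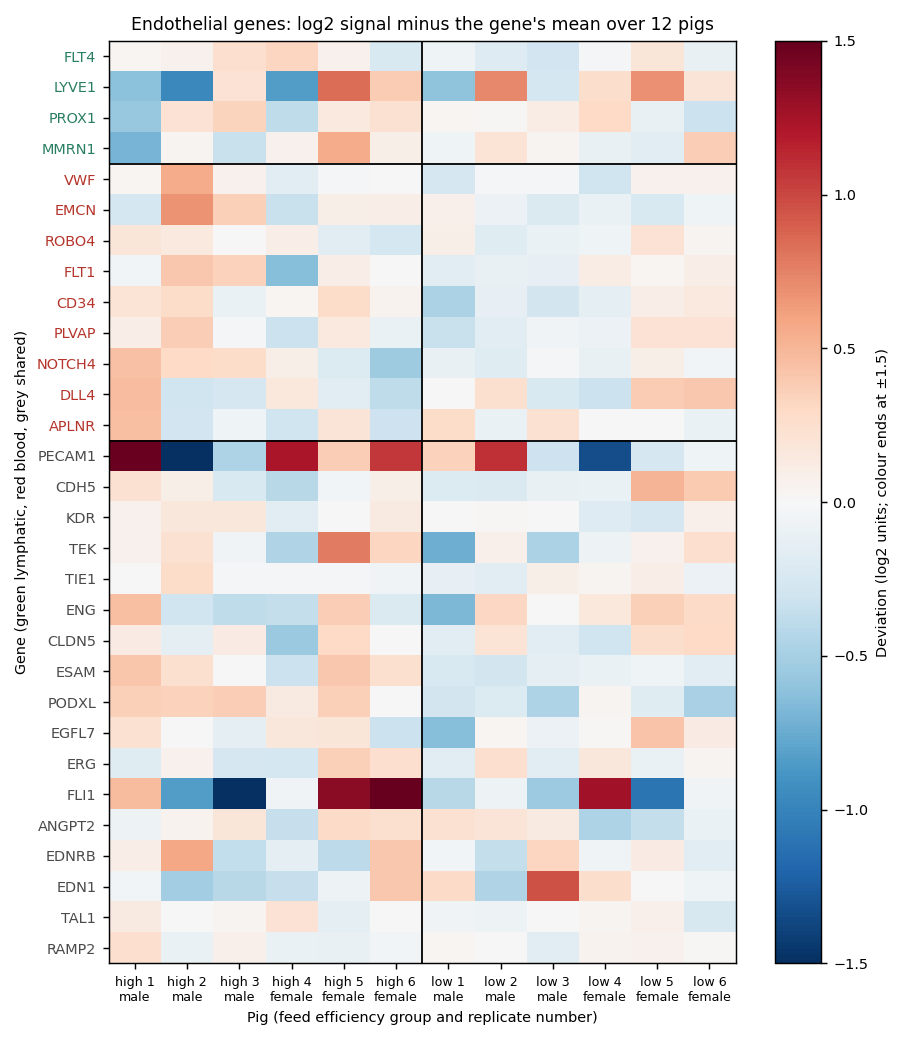
Log2 signal of the 30 vessel genes in each of 12 pigs minus the gene's mean over the pigs, with lymphatic genes at the top, blood vessel genes in the middle and shared genes below; colour ends at ± 1.5. Pig high 1 is low for 3 of 4 lymphatic genes, and PECAM1 and FLI1 show the strongest colours.

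Single pigs differed in how the vessel genes lay as a group. High 1 had 7 of its 30 genes at the highest value of any pig, among them APLNR, DLL4, ENG and NOTCH4, while its lymphatic genes lay at a median of -0.59 from their means over the pigs. High 4 had 6 genes at the lowest value, among them FLT1, EMCN and ESAM, and a median deviation of -0.17 over the 30. Low 1 had 5 at the lowest value, among them TEK, ENG, EGFL7 and CD34, and a median of -0.12. High 5 had the highest median, 0.15, and a lymphatic median of 0.35.

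Other cell types moved with some of these pigs. Enterocyte markers, 9 of 10 measured, had a mean per pig of 8.96 to 10.96 in the high and 10.06 to 11.27 in the low group, and high 1 was the lowest of all. Fibroblast markers, 8 of 8 measured, had a mean of 8.45 to 9.62 in the high and 8.59 to 9.20 in the low group, with high 1 the highest and high 4 the lowest. The ranges were 7.31 to 7.93 and 7.34 to 7.83 for 7 of 10 smooth muscle and pericyte markers, and 6.81 to 7.19 and 6.70 to 7.38 for 7 of 8 leukocyte markers. For 4 of 9 blood cell markers they were 5.24 to 5.73 and 5.08 to 6.50, the last in low 4, and for 5 of 8 enteric neuron and glia markers 4.59 to 5.34 and 4.07 to 4.98. The 30 vessel genes themselves had means of 5.55 to 5.88 and 5.54 to 5.73. The SD of all values on an array was 2.2 ± 0.0469 in the high and 2.25 ± 0.0196 in the low group (n = 6 each). The part of these measures in the vessel gene results was not tested.

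Sex made no difference that passed in any vessel gene. None of the 30 had an adjusted p under 0.05 between males and females in limma, against 0.0168% of all probe sets, which is 6 of 35791. None had an unadjusted p under 0.05 either, where 4.6% of all probe sets had the higher and 4.66% the lower mean in males. The gene nearest to it was FLI1, with a mean of 3.55 in males and 4.56 in females (difference -1.01, SE 0.471; limma unadjusted p = 0.053, adjusted p = 0.543). The lymphatic marker LYVE1 had means of 5.16 in males and 5.66 in females (difference -0.51, SE 0.313; limma adjusted p = 0.619). The 30 genes split 15 to 15 in direction. Without 1 pig the count at an unadjusted p under 0.05 was 0 to 3, and it was above 0 without high 1, high 4, high 5, low 2 or low 5. It was 1 with quantile normalization, median centring or array weights and 2 with the mean of all probe sets of a gene.

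The next comparison asked whether the feed efficiency difference of the vessel genes was the same in males and females. No vessel gene passed in this interaction, and 0% of all probe sets did. The difference in males minus that in females was above 0 for 22 of 30 vessel genes, a median of 0.25, beside 53.8% of all probe sets and a median of 0.04. It was above 0 for all 9 blood vessel genes, from 0.01 for APLNR to 0.64 for NOTCH4 with a median of 0.34, and for 1 of the 4 lymphatic genes, with a median of -0.13. These counts are a description, since the genes were not measured independently and share the same 12 pigs. Leaving out any 1 pig gave 8 or 9 of the 9 blood vessel genes and 19 to 22 of the 30, and a median over the 30 of 0.12, without high 4, to 0.26.

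NOTCH4 was the single gene with an unadjusted p under 0.05 in the interaction, against 3.12% of all probe sets above 0, and no gene was below 0 at that p, against 3.58%. It ran from 4.74 to 5.72 with a median of 5.46 in high-efficiency pigs and from 5.09 to 5.37 with a median of 5.20 in low-efficiency pigs. The 3 high males, at 5.55 to 5.72, lay above every low pig, while the 3 high females ran from 4.74 to 5.37 and reached the top of the low group only in high 4. The high minus low difference was 0.45 in males (SE 0.171) and -0.19 in females (SE 0.171), and the difference between these was 0.64 (SE 0.242; limma unadjusted p = 0.0225, adjusted p = 0.743). The unadjusted p was 0.0578 without high 6 and 0.0526 without low 5. The other NOTCH4 probe sets, with an r of 0.68 and 0.44 with this one, had interactions of 0.22 (SE 0.183; limma unadjusted p = 0.257) and 0.37 (SE 0.307; limma unadjusted p = 0.255), so the call was not seen in either. The count of vessel genes at an unadjusted p under 0.05 was 0 without low 5, 4 without low 4, 3 without high 1, high 3 or high 5, and 2 without high 2, high 4, high 6, low 2 or low 6. It was 7 with array weights, which give less weight to arrays that vary more.

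In males alone, 4 of 30 vessel genes had the higher mean in high-efficiency pigs at an unadjusted p under 0.05, against 3.93% of all probe sets, and none the lower mean, against 4.79%. They were PODXL (0.67, SE 0.169), CD34 (0.43, SE 0.166), ESAM (0.43, SE 0.193) and NOTCH4, and the smallest adjusted p was 0.359 in limma. Leaving out each of the 12 pigs in turn, PODXL kept an unadjusted p under 0.05 throughout, while ESAM lost it in 9 cases (p up to 0.141), CD34 in 4 (up to 0.102) and NOTCH4 in 3 (up to 0.0701). The count was 1 without low 1, 2 without low 3 or with arrays centred on the median, and 8 with array weights. Those fits again have no share of all probe sets beside them. In females alone no vessel gene had an unadjusted p under 0.05, while 2.79% of all probe sets had the higher and 2.65% the lower mean in high-efficiency pigs. The female count was 3 without low 4 or with array weights, and 2 without high 4. It was 1 without high 1, high 2, high 6 or low 6, and with an intensity trend and robust prior in limma. PODXL had a difference of 0.36 (SE 0.169) in females and an interaction of 0.31 (SE 0.239; limma adjusted p = 0.814). The means of this probe set ran the same way in both sexes. The PODXL probe set with a mean of 4.02 differed by 3.19 in males and 1.03 in females (SE 1.05 each). The one with a mean of 4.59 had opposite signs, 0.36 in males and -0.13 in females (SE 0.219 each).

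In the probe sets used, several blood vessel and junction genes had opposite signs in the 2 sexes. CDH5 differed by 0.21 in males and -0.39 in females (interaction 0.60, SE 0.289; limma adjusted p = 0.746), FLT1 by 0.37 and -0.25 (0.63, SE 0.286; 0.744) and PLVAP by 0.33 and -0.21 (0.53, SE 0.25; 0.745). The reverse pattern appeared in MMRN1, with -0.39 in males and 0.21 in females, in ANGPT2, with -0.13 and 0.37, and in PECAM1, with -1.09 and 1.44. The CD31 probe set of PECAM1 ran the other way, with 0.23 in males and -0.27 in females (interaction 0.50, SE 0.37). The other CDH5 probe sets differed by 0.29 and -0.05 in males and by 0.03 and -0.04 in females. The other FLT1 probe sets differed by 0.08 and 1.01 in males and by 0.02 and 0.98 in females. None of these other CDH5 and FLT1 probe sets had opposite signs. In all, by the probe sets used, 12 of 30 vessel genes, 40%, were higher in males and lower in females, beside 27.4% of all probe sets. The reverse held for 6, 20%, beside 21.1%. The mean was higher in both sexes for 8, 26.7%, beside 25%, and lower in both for 4, 13.3%, beside 26.6%. None of these interactions passed.

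**Figure D4:**
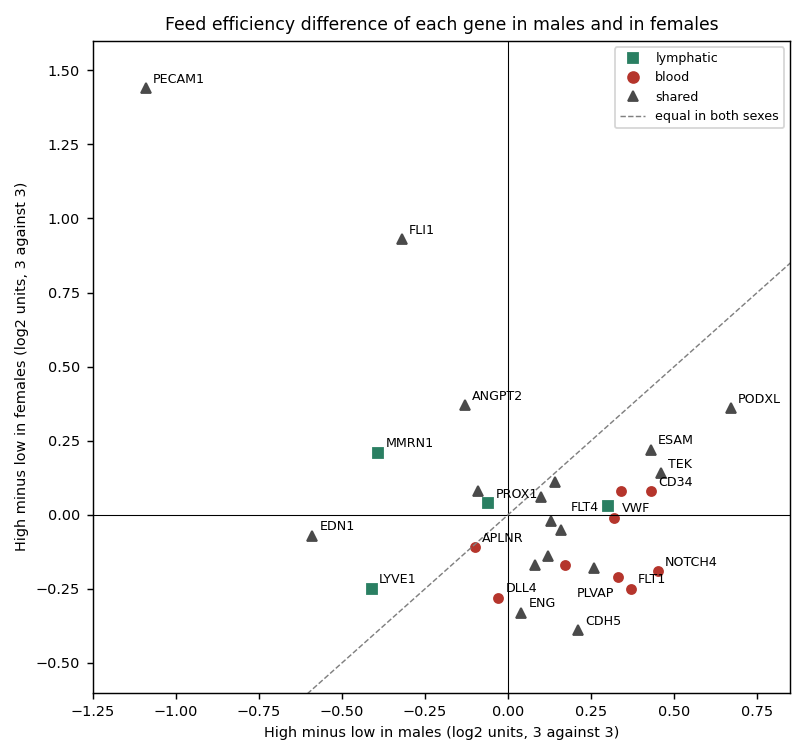
High minus low feed efficiency in log2 units of each vessel gene in males, on the horizontal axis, against that in females, on the vertical axis, with 3 against 3 pigs each; squares are lymphatic, circles blood and triangles shared genes, the dashed line marks equal differences, and the more distant points are named. All 9 blood vessel genes lie below the dashed line, APLNR by 0.01 only, and 3 of 4 lymphatic genes lie above it.

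The probe sets used for the vessel genes did not vary as 1 block over the pigs. Over all 435 pairs of the 30 genes the median Pearson r was 0.09, and 52 pairs, 12%, had an r above 0.5. Within the 9 blood vessel genes the median was 0.25 over 36 pairs, within the 4 lymphatic genes 0.02 over 6 pairs, and between lymphatic and blood genes 0.00 over 36 pairs. CDH5 had a median r of 0.26 with the other 29 genes and 0.03 with all other probe sets. PLVAP had 0.26 and 0.01, PROX1 0.02 and -0.04, and LYVE1 0.04 and -0.03. The shares with an r above 0.5 were 13.8% and 10.8% for CDH5 and 31% and 6.71% for PLVAP. They were 6.9% and 6.62% for PROX1 and 13.8% and 11.8% for LYVE1. All of these rest on the same 12 arrays and share each array's normalization. Further probe sets of the same gene had a median r of only 0.34 with the one used. A low r between 2 genes therefore does not show that the genes themselves varied apart.

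The pairs with the strongest r were chosen after the values were seen. TEK and CD34 reached 0.80, ROBO4 and NOTCH4 0.80, VWF and PLVAP 0.78, EMCN and FLT1 0.76, and CDH5 and PLVAP 0.75. The lowest was -0.88, between PROX1, sorted here as lymphatic, and DLL4, sorted here as a blood vessel gene. Which cells of the whole mucosa gave either signal was not tested. MMRN1 and RAMP2 were at -0.75, as were PECAM1 and TIE1.

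**Figure D5:**
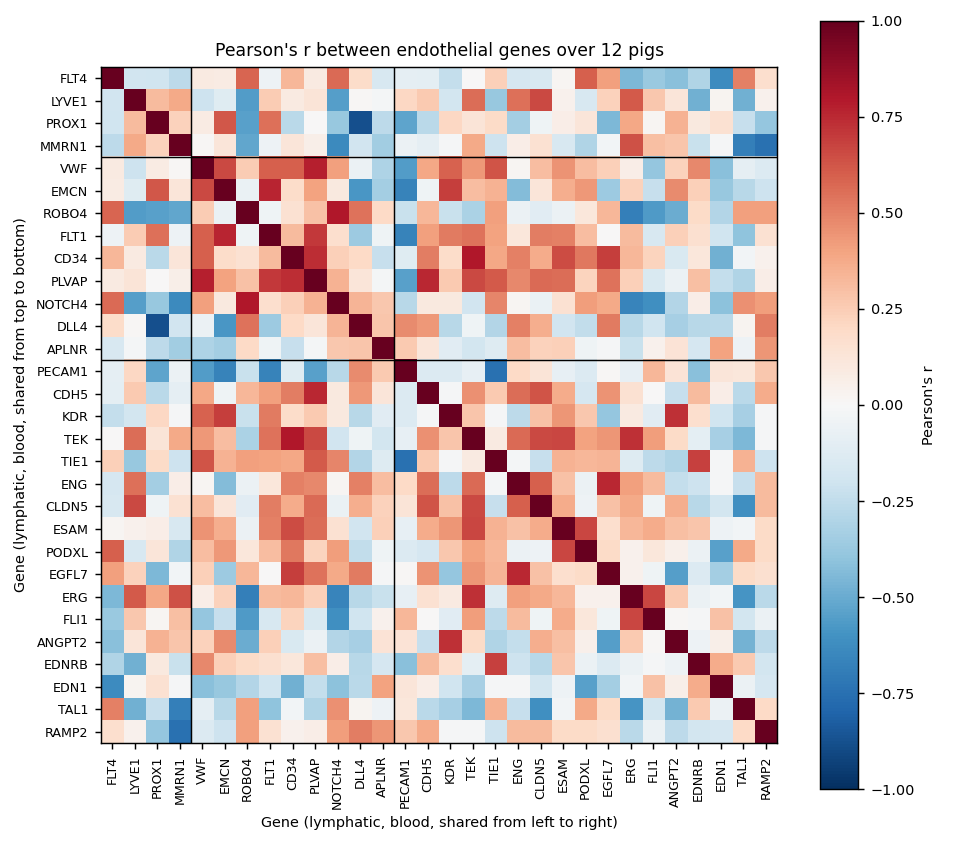
Pearson's r over 12 pigs for each pair of the 30 vessel genes, with lymphatic, blood and shared genes set apart by black lines; red is positive and blue negative. The block of blood vessel genes is mostly red, with a median of 0.25, and the blocks that join lymphatic to blood genes have a median of 0.00.

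For 16 pairs named by known relations, r was tested with 100000 permutations of the pigs, and none passed after adjustment over the 16 pairs (smallest adjusted p = 0.26 for Pearson's r and 0.244 for Spearman's rho). The VEGF receptors KDR and FLT1 had an r of 0.52 (permutation p = 0.0813, adjusted p = 0.26) and a rho of 0.44 (permutation p = 0.155). It was 0.91 within the high group (exact p = 0.0222) and -0.41 within the low group (exact p = 0.376), and 0.92 without low 4 and low 5, the pigs farthest from the KDR median. The receptor TEK and its ligand ANGPT2 had an r of 0.19 (permutation p = 0.557), with 0.84 within the high group (exact p = 0.0417) and -0.51 within the low group (exact p = 0.283). Whether these r differed between groups was not tested.

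CDH5 and PECAM1, which share endothelial junctions, had an r of -0.14 (permutation p = 0.676) and a rho of -0.06. That r used the PECAM1 probe set with the wide spread, whose r with the CD31 probe set was only 0.10. The CD31 probe set was not among the pairs tested with CDH5, so whether these 2 junction genes varied together was not settled. With the blood vessel gene VWF, CDH5 had an r of 0.39 (permutation p = 0.216), and with KDR -0.01 (permutation p = 0.975), a value that was 0.49 without low 5 and low 6. PROX1 had an r of 0.32 with LYVE1 (permutation p = 0.308), 0.23 with MMRN1 (permutation p = 0.472) and -0.20 with FLT4 (permutation p = 0.527). Without high 1 and high 4, the pigs with the lowest PROX1, these were -0.15, -0.40 and 0.16, so the signs rest on those pigs.

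CDH5 was also paired with 1 gene of each of 4 other cell types. Its r was 0.58 with the fibroblast collagen COL1A1 (permutation p = 0.0474, adjusted p = 0.26; rho 0.59, permutation p = 0.0457) and 0.56 with the smooth muscle actin ACTA2 (permutation p = 0.0572; rho 0.68, permutation p = 0.018). It was -0.59 with the leukocyte gene PTPRC (permutation p = 0.046, adjusted p = 0.26; rho -0.61) and -0.54 with the enterocyte gene FABP2 (permutation p = 0.067; rho -0.48). Without low 5 and low 6, the pigs with the highest CDH5, r was 0.71 with COL1A1, 0.67 with ACTA2, -0.58 with FABP2 and -0.27 with PTPRC. The r with PTPRC was -0.42 in the high (exact p = 0.404) and -0.71 in the low group (exact p = 0.101). Within the groups r with COL1A1 was 0.78 in the high (exact p = 0.0667) and 0.53 in the low group (exact p = 0.304). All of these used 1 CDH5 probe set, whose r with the other CDH5 probe sets was -0.07 and 0.38. Over 3 alternatives for normalization or probe sets, r ran from -0.66 to -0.33 with PTPRC and from 0.54 to 0.59 with COL1A1. With ACTA2 it ran from 0.44 to 0.62, and with FABP2 from -0.64 to -0.45.

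Other genes of the same pathways were read from lists named by known function, and none passed for feed efficiency, sex or their interaction. Of 16 other pan-endothelial genes, 9 had the higher and 7 the lower mean in high-efficiency pigs, with 3 and 1 at an unadjusted p under 0.05, against 3.81% and 3.98% of all probe sets. The first by p were CYYR1 (0.57, SE 0.177; limma adjusted p = 0.621) and the VE-cadherin phosphatase PTPRB (0.38, SE 0.119; limma adjusted p = 0.621). Of 6 VEGF and angiopoietin ligands and co-receptors, 5 had the higher mean, and the co-receptors NRP1 (0.31, SE 0.128) and NRP2 (0.41, SE 0.181) had an unadjusted p under 0.05 (limma adjusted p = 0.63 and 0.638), against 3.81% of all probe sets with the higher mean at that p. Of 8 Notch pathway genes 6 had the higher mean and none an unadjusted p under 0.05, with NOTCH1 at -0.33 (SE 0.192) and the ligand JAG1 at 0.19 (SE 0.129).

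In the endothelin, apelin and adrenomedullin pathways, 5 of 6 genes had the lower mean, led by the endothelin-converting enzyme ECE1 at -0.29 (SE 0.146) and the ligand EDN3 at -0.26 (SE 0.195). Of 13 other endothelial transcription factors 4 had the higher and 9 the lower mean, where 48.4% of all probe sets had the higher mean. ELK3, at 0.28 (SE 0.115), was the 1 gene at an unadjusted p under 0.05, against 3.81% of all probe sets higher and 3.98% lower. KLF4 was at -0.32 (SE 0.152). The 12 other lymphatic genes, NRP2 among them, split 6 to 6, with 3 higher and 1 lower at an unadjusted p under 0.05, against 3.81% and 3.98% of all probe sets. ADAMTS3, a protease that helps to mature VEGF-C, was at 0.33 (SE 0.141; limma unadjusted p = 0.0378, adjusted p = 0.638), and podoplanin, PDPN, a lymphatic membrane glycoprotein, at -0.32 (SE 0.14; limma unadjusted p = 0.0411, adjusted p = 0.638). Of 5 genes for leukocyte adhesion to endothelium 2 had the higher mean, with the selectin SELP at -0.29 (SE 0.345) and the gut homing molecule MADCAM1 at 0.05 (SE 0.207).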

How the data were processed

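Total RNA of jejunal mucosa from 12 pigs was read on single-colour Affymetrix arrays (Snowball pig design), per the labels' protocols. The values used are the authors' deposited log2 signals. GCOS 1.1.1 is named per the submitters' processing notes, while background correction, summarization and normalization were not given in the sources used here. Detection calls are unknown, and precision is limited by the array number. The table held 47845 probe sets, of which 123 controls were left out. Of the other 47722, the platform annotation gave 1 symbol to 26426, several to 0 and none to 21296.

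Probe sets with a mean above the 25th percentile, 2.29, entered the fits (35791). Limma 3.58.1 in R 4.3.3 fitted feed efficiency plus sex, and 4 means of sex and group for the interaction and the differences within each sex, with Benjamini-Hochberg adjustment over all 35791. Correlations used 100000 permutations and within-group exact permutations (numpy 2.4.6). The fits were tested on simulated data. No file gave a scan date or other batch.

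Each pig counts as 1 replicate. All 32 genes, their vessel types, the pathway lists and the markers were chosen with earlier results of these data known. Values by group are given for genes with an unadjusted p under 0.05 for feed efficiency, sex or their interaction, for the 4 lymphatic genes and for CDH5, PECAM1, VWF and KDR. Other genes are given by means, ranges and counts, and pathway genes by the smallest p, up to 2 per list. Alternatives changed the normalization, filter, array weights, variance prior, sex term, array spread, probe set rule and each pig. Sequences and promoter motifs were not analysed here.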

Additional observations from a re-analysis of the deposited data

Results flagged for a closer look

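In 4 of the 60 gene and group combinations checked, 1 pig lay far from the other 5 of its group by Dixon's criterion, which chance meets in about 1 of 20 groups. VWF was 6.70 in pig high 2 and 5.97 to 6.21 in the other high pigs. TIE1 was 5.41 in the same pig and 5.08 to 5.15 in the others. ENG was 6.68 in pig low 1 and 7.35 to 7.71 in the other low pigs. RAMP2 was 7.08 in pig low 3 and 7.24 to 7.30 in the others.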

How the results depend on the processing

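No vessel gene passed in any comparison under any alternative run, and the feed efficiency differences of PODXL, ESAM, VWF and KDR kept their sign under every one. FLT4 kept it wherever it was tested, but its probe set did not pass the stricter filter. No paired analysis was possible because the labels give the pigs of the groups no shared replicate numbers. Shares of all probe sets at an unadjusted p under 0.05 are given for the unchanged fits only. Counts of vessel genes at that p under an alternative therefore have no background beside them. The cause of the changes below was not tested. With array weights, PROX1 was at 0.07 and PECAM1 at -0.03 for feed efficiency. With array spread as a covariate, LYVE1 was at 0.22, PROX1 at 0.04, MMRN1 at 0.12, CDH5 at 0.04 and NOTCH4 at -0.06. With the mean of all probe sets of a gene, CDH5 was at 0.01, PROX1 minus CDH5 at -0.08 and the r of CDH5 and KDR at 0.46. That r was 0.01 with arrays centred on the median, and FLT4 minus KDR was -0.03 after quantile normalization. PECAM1 was at -0.02 with its CD31 probe set. By gene means over the named genes only, 0 genes passed for sex, in place of 6 probe sets, and 7 passed in males, none of them a vessel gene.

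Leaving out 1 pig at a time gave feed efficiency differences of -0.17 to 0.01 for CDH5, -0.19 to 0.03 for MMRN1, -0.18 to 0.86 for PECAM1 and -0.08 to 0.12 for PROX1. The log ratios ran from -0.06 to 0.13 for FLT4 minus KDR, from -0.06 to 0.25 for PROX1 minus CDH5 and from -0.44 to -0.05 for LYVE1 minus CDH5. The r ran from -0.23 to 0.46 for CDH5 and KDR, -0.26 to 0.01 for CDH5 and PECAM1, -0.41 to 0.03 for PROX1 and FLT4, -0.32 to 0.41 for PROX1 and MMRN1 and -0.03 to 0.43 for TEK and ANGPT2. Probe sets passing ran from 0 to 3 in males and from 0 to 1 in females. The unknown normalization and the background probe sets of up to 7.70 limit what a low signal shows.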

Other observations

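A gene's other probe sets often varied differently from the one used. For 16 of the vessel genes, 29 further probe sets passed the filter, and their r with the one used had a median of 0.34, from -0.26 to 0.79. Only 6 of the 29 had an r above 0.5, and 6 had an r below 0. For 23 of the 29 the feed efficiency difference had the same sign. Of the 29, 2 had an unadjusted p under 0.05 for feed efficiency in limma, the PODXL probe set given above and a KDR probe set. Of all probe sets, 3.81% had the higher mean at that p. The KDR probe set, with a mean of 2.45 near the filter value of 2.29, differed by 0.26 (SE 0.121; limma unadjusted p = 0.0484, adjusted p = 0.639). The other further KDR probe sets, with means of 6.09 and 3.23, differed by 0.01 (SE 0.154) and -0.02 (SE 0.129).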
